A study of Drosophila melanogaster with 73 samples.

Results

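The genes described here encode the protein subunits of the cytosolic ribosome in Drosophila melanogaster. They were taken by name from the count tables of guts and of abdominal fat bodies: every gene whose symbol begins with RpL or RpS followed by its number, the P proteins of the large-subunit stalk, and sta, which encodes the small-subunit protein known elsewhere as RpSA. Proteins of the mitochondrial ribosome (mRpL and mRpS) were left out. The rule found 85 genes of 10366 in the gut table and the same 85 of 11069 in the fat body table, 51 of the large and 34 of the small subunit. All 85 were abundant enough to be tested in both tissues. A further 8 symbols that fit the rule, among them RpL22-like, RpS19b and RpS12, were not analysed here.

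Cytosolic ribosomal proteins assemble with ribosomal RNA in the nucleolus into a small subunit, which reads the mRNA, and a large subunit, which joins amino acids and holds the tunnel through which the new protein leaves. The subunits are needed in equal numbers, so their genes are usually expressed together at high level, and in flies loss of 1 copy of many of them gives the Minute phenotype of slow development and thin bristles. Growth signalling through insulin and TOR raises ribosome production, and Foxo, which is active when insulin signalling is low, is known in flies as a regulator of growth and protein synthesis.

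Polyadenylated RNA was sequenced from mated adult females that carried the S106 GeneSwitch driver, which acts in gut and fat body when flies eat the steroid RU486. The flies also carried transgenes for Foxo, for AopACT (Aop, a repressor of the ETS family, in an always active version), for PntP1 (an isoform of the ETS activator Pnt that is likewise always active), or for a combination: Foxo+AopACT, Foxo+PntP1, AopACT+PntP1 or all 3. Females mated for 48 h ate food with 200 µM RU486 (induced) or with its carrier only (uninduced) for 6 days. The question asked of these samples was how the 3 factors change transcription alone and together. No library came from flies with the driver and no transgene, so a response common to the 7 genotypes and a response to RU486 feeding itself cannot be told apart. Organs of several flies were pooled for each library, and the fat body was what remained of the abdomen without gut and reproductive organs.

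Of the 36 gut libraries 17 were induced, and of the 34 from fat bodies 18 were, with at most 3 libraries per group. The gut group of uninduced Foxo+PntP1 flies held 1 library. Total counts per library ranged from 1598120 to 6145550 in the gut and from 1138812 to 8257766 in the fat body. Transcripts encoded by the mitochondrial genome took 24.9% of the counts of gut Foxo+PntP1 induced replicate 2 and of gut Foxo+AopACT+PntP1 uninduced replicate 3, against a gut median of 6.8%. Scaled to the total count as CPM, pnt was at 160 to 1280 in guts induced with PntP1 and 20.4 to 90.5 in all other guts. In guts foxo was at 58.0 to 408 with induced Foxo and 29.9 to 84.4 otherwise, and aop at 56.4 to 447 with induced AopACT and 25.6 to 175 otherwise. Of the latter, induced PntP1 and Foxo+PntP1 guts had aop at 89.0 to 175. In AopACT+PntP1 guts aop was at 66.0 and 56.4 induced and 50.1, 42.8 and 46.1 uninduced. In fat bodies pnt was at 53.0 to 203 against 7.54 to 109, where the 109 came from the library labelled Foxo+PntP1 uninduced replicate 1, aop at 61.3 to 146 against 38.2 to 96.6, and foxo at 53.4 to 138 against 46.6 to 145, so that a raised foxo level was not seen in fat bodies. Summed fat body markers were at 25200 to 269000 CPM in fat bodies and 267 to 2710 CPM in guts. The gut libraries numbered 02 (Foxo+PntP1 induced replicate 1) and 05 (Foxo uninduced replicate 1) carry each other's condition in the labels of the fat body libraries with those numbers. They were kept as labelled. Gut library 02 had pnt at 736 CPM of the total count and gut library 05 at 21.5 CPM. Both values lie within the gut ranges given above for their labels. The labels do not say whether replicates came from separate cultures, so p-values measure the spread between these libraries. In these pools, fewer cells of a type and less RNA per cell cannot be told apart.

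The summed share of the 85 genes was 6.69% to 13.2% of counts in gut libraries (median 9.93%) and 5.69% to 16.3% in fat body libraries (median 10.6%). Among the 100 most abundant genes of a library, 10 to 36 were ribosomal protein genes in gut libraries and 16 to 54 in those of fat bodies. Levels are given in CPM, counts per library size of 1e6 after TMM scaling, and levels of different genes are set side by side only as CPM per kilobase of transcript.

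Most members lay close to each other on that scale. In uninduced guts the median member was at 1891 CPM per kb, and 63 of 85 were within 2-fold of it; in uninduced fat bodies the median was 1852 CPM per kb, with 65 within 2-fold. The highest mean level in both tissues was that of RpL41, which encodes the shortest ribosomal protein, a single helix between the subunits: 5548 ± 5299 CPM per kb in the gut (SD, n = 19) and 4983 ± 2535 CPM per kb in the fat body (SD, n = 16). It did not differ from its neighbours beyond that spread. Among the 5 highest were also RpS29 (4522 ± 1436 CPM per kb) and RpS15 (3805 ± 994) in the gut, and RpS29 (4095 ± 1284), RpL28 (3487 ± 1013) and RpS15 (3375 ± 1034) in the fat body. Within each tissue these genes lie within 1 SD of each other in that order.

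At the other end stood genes that are copies or relatives of a main subunit gene. The lowest 5 were the same in both tissues: RpS5b, RpLP0-like, RpL7-like, RpS15Ab and RpL24-like. Their mean levels in uninduced guts were 12.5 ± 13.7, 36.5 ± 9.81, 87.7 ± 22.6, 89.6 ± 33.3 and 228 ± 78.6 CPM per kb (SD, n = 19). The yeast counterparts of the -like proteins (Mrt4, Rlp7 and Rlp24) act in assembly of the large subunit and are not part of the finished ribosome. As a share of the CPM of each pair, RpL24-like took a median of 13.7% (gut) and 16.1% (fat body), RpL7-like 3.35% and 3.77%, and RpLP0-like 4.4% and 4.08%.

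Duplicated subunit genes took similar median shares in gut and fat body, with RpS5b the exception. RpS14b took a median of 25.8% of the RpS14a and RpS14b pair in gut libraries (range 23.3% to 31.7%) and 25.2% in those of fat body (21.5% to 35.1%). These genes are adjacent near-identical copies, so the split between them is uncertain. RpS15Ab took a median of 4.13% (gut) and 4.02% (fat body) of its pair, and RpL34a 22.3% and 20.9%. RpS5b, a copy that flies use mainly in the germline, took 0.489% of its pair with RpS5a in gut libraries (0% to 2.24%) and 4.72% in those of fat body (0.221% to 23.7%).

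With edgeR, the lowest median and the only calls in a single genotype were in guts of flies in which Foxo and AopACT were induced together. There 13 of 85 ribosomal protein genes fell and 0 rose (edgeR adjusted p under 0.1), against 1.29% of all 9270 genes tested that fell and 0.831% that rose. The median member had a log2 fold change of -0.88, against -0.10 for all genes. In 70 of 85 both induced libraries were below all 3 uninduced libraries, an arrangement that 18.7% of all genes showed in this comparison.

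The 13 were 11 genes of the large and 2 of the small subunit. RpL27, whose exons overlap those of Idh3g on the opposite strand, lies on chromosome 3R from 25683623 to 25685051 (Ensembl annotation of BDGP6). It had 2264, 1542 and 2645 CPM in the uninduced libraries and 1009 and 941 CPM in the induced libraries. The induced pair lay close together and well under the lowest uninduced library, and the log2 fold change was -1.15 (SE 0.30, n = 3 and 2, adjusted p = 0.0521 by edgeR). RpL23, a protein of the interface between the subunits, stood at 1646, 1242 and 2586 CPM uninduced and 829.9 and 971 CPM induced (-0.99 ± 0.26 SE on the log2 scale, edgeR adjusted p = 0.0542). RpL9, which sits near the base of the stalk, had 2017, 1450 and 2703 CPM uninduced and 861 and 969 CPM induced (-1.15 ± 0.31 SE on the log2 scale, edgeR adjusted p = 0.0688). In each case uninduced replicate 3 was highest and uninduced replicate 2 nearest to the induced libraries.

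The stalk of the large subunit, which recruits elongation factors, gave a divided picture in these guts. RpLP1 fell from 2128, 1517 and 2744 CPM to 1108 and 1062 CPM (-1.01 ± 0.28 SE on the log2 scale, edgeR adjusted p = 0.0688). RpL12, at the base of the stalk, fell as well (log2 fold change -1.04, edgeR adjusted p = 0.0837). RpLP2, the partner of RpLP1, had 1282, 1109 and 1738 CPM uninduced and 795 and 825 CPM induced and did not pass (edgeR adjusted p = 0.225). RpLP0, which anchors both partners to the ribosome, had 591, 680.0 and 298 CPM uninduced and 662 and 789.7 CPM induced (0.47 ± 0.59 SE on the log2 scale, edgeR adjusted p = 0.687), so its groups overlapped.

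Of the small subunit, RpS16, which reaches the site where the transfer RNA is held, fell from 1152, 807 and 1622 CPM to 538 and 601 CPM (-1.07 ± 0.29 SE on the log2 scale, edgeR adjusted p = 0.0664), and its induced libraries lay well apart from the uninduced ones. The other large-subunit genes were RpL32, RpL19, RpL26, RpL31, RpL35A and RpL37-1, with log2 fold changes of -1.05 to -0.88 and edgeR adjusted p of 0.0840 to 0.0950. RpL26 and RpL31 line the exit of the protein tunnel. Induced libraries lay below all uninduced libraries for each of the 13.

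**Figure D1:**
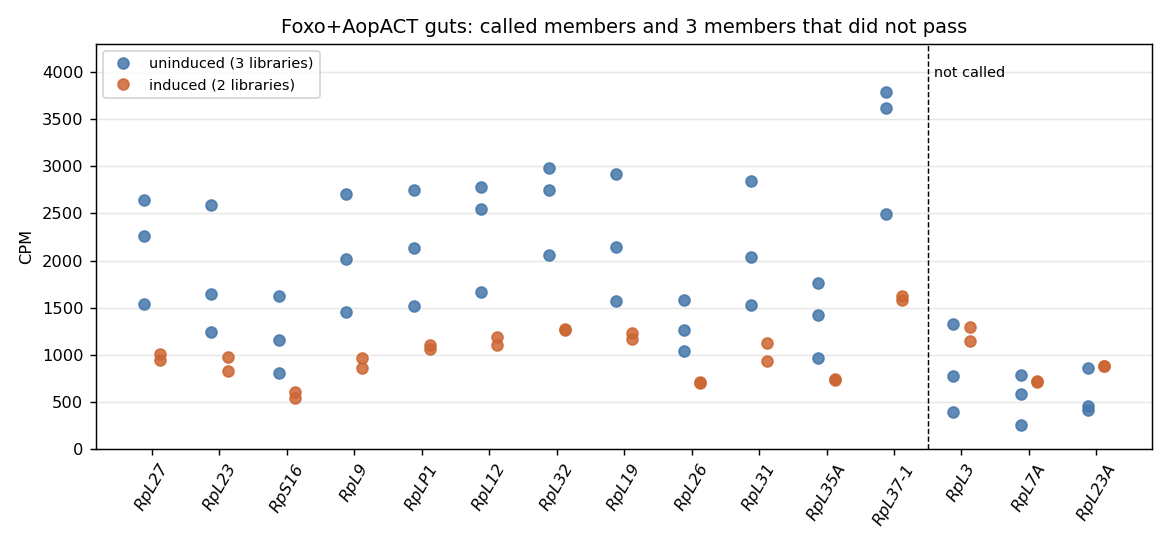
Level (CPM) in each gut library of Foxo+AopACT flies, blue for the 3 uninduced and orange for the 2 induced libraries, for the called genes named in the text, in order of p, and, right of the dashed line, for RpL3, RpL7A and RpL23A. Every called gene shown has both orange points under all blue points (RpL27: 1009 and 941 CPM under 1542 CPM), while RpL3 and RpL7A overlap and RpL23A has its induced libraries on top.

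Members with other functions lay on the same side without passing in these guts. RpS6, the substrate of S6 kinase, had 1448, 1794 and 1342 CPM uninduced and 1186 and 1276 CPM induced (edgeR adjusted p = 0.656), and RpS3, at the entry of the mRNA channel, had a log2 fold change of -0.26 (edgeR adjusted p = 0.630). RpL40 and RpS27A, each made as a fusion with ubiquitin, had log2 fold changes of -0.90 and -1.08 (edgeR adjusted p = 0.151 and 0.124). RpL5 and RpL11, which enter the large subunit together with a small ribosomal RNA, had -0.85 and -0.81 (edgeR adjusted p = 0.232 and 0.142). For all of these the induced libraries were the lowest of the genotype. The assembly relatives RpL24-like, RpL7-like and RpLP0-like had log2 fold changes of -0.74, -0.59 and -0.39, also without overlap and without passing.

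A minority of members went the other way. RpL23A, which docks the signal recognition particle at the tunnel exit, had 454, 858 and 416 CPM uninduced and 880.2 and 884 CPM induced, with the induced pair on top (0.63 ± 0.70 SE on the log2 scale, edgeR adjusted p = 0.653). RpL3, a core protein of the peptidyl transferase centre, had 772, 1329 and 393 CPM uninduced and 1297 and 1142 CPM induced, within the uninduced range (log2 fold change 0.58 ± 0.72 SE). RpL22 (0.57) and RpLP0 (0.47) completed the 4 highest log2 fold changes, and the 4 lowest were RpS5b (-1.87), RpL41 (-1.24), RpL39 (-1.19) and RpL10 (-1.16), none of which passed. The members at both extremes thus had large errors (0.41 to 1.30 SE), and the called genes lay between them.

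The Foxo+AopACT calls were sensitive. Leaving out uninduced replicate 1, uninduced replicate 3, induced replicate 1 or induced replicate 2 left 0 called members, and leaving out uninduced replicate 2 gave 44; scaling to the total count or adding a length slope of each library as a covariate gave 0, leaving out both libraries rich in mitochondrial counts gave 26 (4.12% of all genes in either direction), and DESeq2 called 45 (4.8%). Relative to all genes the median member was lower by a like amount under each scaling: -0.775 on the log2 scale with TMM, -0.769 with RLE and -0.751 with total counts, where all genes themselves had a median of 0.31.

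Averaged over the 7 genotypes, induction was accompanied by lower levels of more members in the gut. This mean response called 44 of 85 as lower and 0 as higher, 29 of the large and 15 of the small subunit, against 6.45% of all genes tested that fell and 4.66% that rose. The shift was small: a median of -0.33 on the log2 scale, against 0.00 for all genes, with 82 of 85 members below 0. The lowest p belonged to RpL27 (-0.54 ± 0.11 SE, edgeR adjusted p = 0.00148), RpS29 (-0.62 ± 0.13 SE, adjusted p = 0.00274), RpL9 (-0.53 ± 0.11 SE, adjusted p = 0.00294) and RpL23 (-0.44 ± 0.10 SE, adjusted p = 0.00302). RpL35 at the tunnel exit (-0.51, edgeR adjusted p = 0.00428) and RpLP1 (-0.43, adjusted p = 0.00662) were next.

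The mean response includes Foxo+AopACT, and its called members were not lower everywhere. Of the 44, 8 had a lower value in 7 of 7 genotypes, 14 in 6, 19 in 5 and 3 in 4. RpL27 was lower in 7 of 7, from a log2 fold change of -0.11 with AopACT+PntP1 to -1.15 with Foxo+AopACT. RpL23 was lower in 5 of 7, with 0.11 for AopACT and 0.09 for AopACT+PntP1.

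The same mean response reached members with known extra functions. RpS27A (-0.51, edgeR adjusted p = 0.0103), RpL5 (-0.46, adjusted p = 0.0196), RpL40 (-0.33, adjusted p = 0.0791), RpS5a (-0.31, adjusted p = 0.0425) and the assembly relatives RpL24-like (-0.45, adjusted p = 0.0231) and RpL7-like (-0.32, adjusted p = 0.0418) fell. RpL11 (-0.27, edgeR adjusted p = 0.116), RpS6 (-0.24, adjusted p = 0.344), RpS3 (-0.20, adjusted p = 0.279) and RpLP2 (-0.25, adjusted p = 0.208) did not pass. The lowest value was that of RpL41 (-0.66, edgeR adjusted p = 0.0822), followed by RpL38 (-0.63, adjusted p = 0.176), and the highest were RpS5b (0.41), RpL23A (0.13) and RpLP0 (0.06), which did not pass; sta was at -0.03. With total counts in place of TMM the count was 9, against 29.1% of all genes in either direction. There the median member was -0.09 and that of all genes 0.24. Leaving out single libraries gave between 33 and 57. Without both libraries rich in mitochondrial counts the count was 50 (13.8% of all genes).

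**Figure D2:**
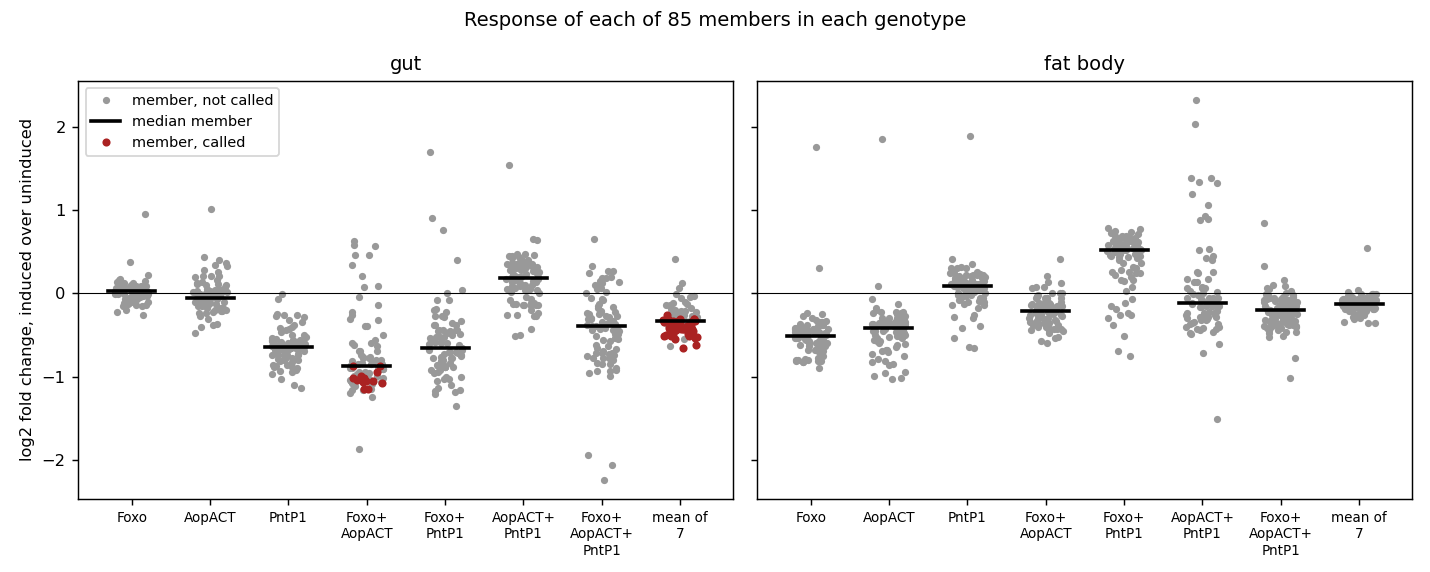
Log2 fold change (induced over uninduced) of each of the 85 genes in each genotype and in the mean of the 7 genotypes, gut on the left and fat body on the right; grey points are genes that were not called, red points are called genes, and the black bar is the median. Red points appear in the gut with Foxo+AopACT (13) and in the gut mean response (44), all below 0, and the gut medians of PntP1 and of Foxo+PntP1 lie near that of Foxo+AopACT.

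PntP1 alone called 0 members in the gut with edgeR (3.04% of all genes), 44 of 85 had an unadjusted p under 0.05 (10.9% of all genes), and DESeq2 called 13 as lower (4.41% of all genes in either direction). All 85 log2 fold changes were below 0, with a median of -0.64, against -0.02 for all genes, and in 54 members both induced libraries were below the 3 uninduced ones (11.8% of all genes). RpL27 had 2287, 2195 and 1369 CPM uninduced and 1118 and 1028 CPM induced (edgeR adjusted p = 0.154). RpLP1 had 2301, 2122 and 1772 CPM uninduced and 1406 and 1350.0 CPM induced (edgeR adjusted p = 0.328). Uninduced replicate 3 lay nearest to the induced libraries, and without it the count was 9.

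The gut of Foxo+PntP1 flies had a like median but a single uninduced library. Here 0 members passed with edgeR (2.79% of all genes), 25 had an unadjusted p under 0.05 (9.46%), and DESeq2 called 2 (3.36%); the median log2 fold change was -0.66, and 69 members had all 3 induced libraries below the uninduced one (24.9% of all genes). RpL23 stood at 1590.0 CPM uninduced and 643, 719 and 928 CPM induced (log2 fold change -0.96, edgeR adjusted p = 0.136). With 1 uninduced library, the spread behind these p-values comes from the other groups. Induced replicate 2 is a library with 24.9% mitochondrial counts. Leaving out single induced libraries of this genotype gave median log2 fold changes of -0.70 to -0.58 over the members. With all 3 transgenes 0 members passed with edgeR (1.64% of all genes), 31 had an unadjusted p under 0.05 (10.95%), and DESeq2 called 14 (2.77%); the median was -0.39, and 16 members did not overlap in that direction (7.04% of all genes). Without uninduced replicate 1 of that genotype the count was 16.

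With Foxo, AopACT and AopACT+PntP1 the medians in the gut lay closer to 0. Each had 0 members called with edgeR (0.507%, 0.291% and 0.787% of all genes) and with DESeq2, and 0, 0 and 1 members with an unadjusted p under 0.05 (4.68%, 4.01% and 6.97% of all genes). The median log2 fold changes were 0.03, -0.06 and 0.19. Of the 85, 0, 3 and 0 had all induced libraries below all uninduced ones (5.05%, 7.63% and 8.72% of all genes), and 1, 1 and 12 had them above (5.45%, 7.89% and 11.8%). RpL27 in Foxo flies had 1634, 1335 and 1534 CPM uninduced and 1644, 1219 and 1194 CPM induced. The ranges of the groups overlapped there.

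**Figure D3:**
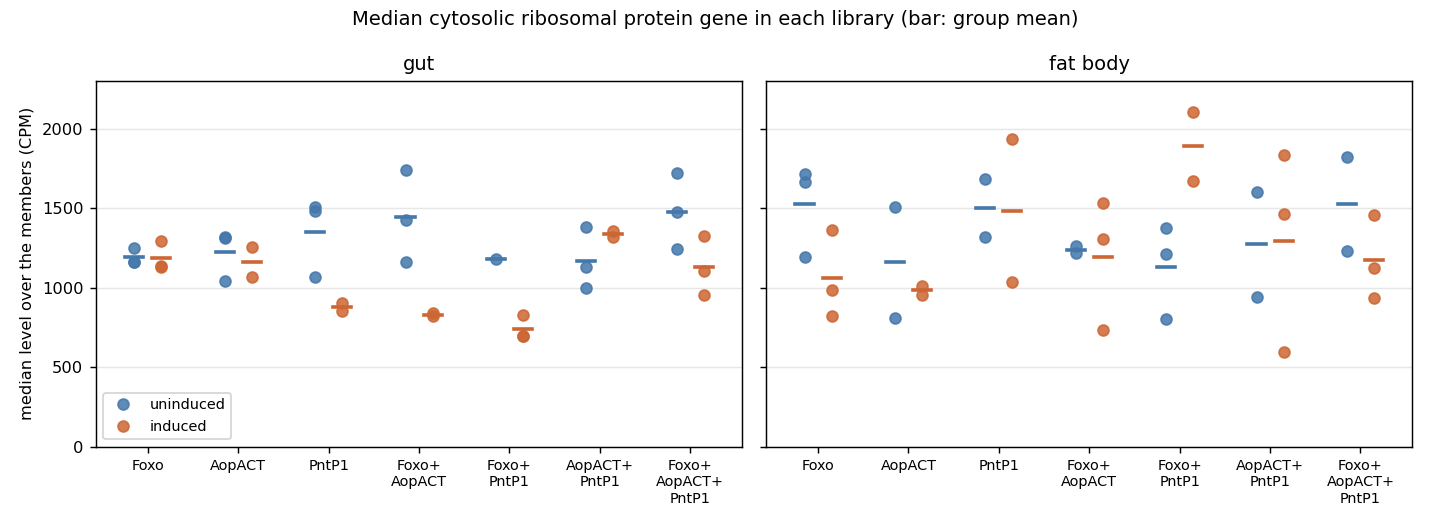
Median CPM over the 85 genes in each library (points, blue uninduced and orange induced) with the mean of each group (bars), by genotype, gut on the left and fat body on the right. In the gut the induced libraries of PntP1 (904 and 853 CPM), Foxo+AopACT (819 and 838 CPM) and Foxo+PntP1 (695, 698 and 831 CPM) lie below all uninduced libraries of their genotype; in the fat body the spread within groups is wider.

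In single libraries the median member went from 1427, 1163 and 1739 CPM in uninduced to 819 and 838 CPM in induced Foxo+AopACT guts. In PntP1 guts it went from 1508, 1483 and 1067 CPM to 904 and 853 CPM, and in Foxo+PntP1 guts from 1179 CPM to 695, 698 and 831 CPM. In the other genotypes the induced and uninduced gut libraries overlapped on this measure.

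Whether the genotypes differed in their response was tested directly. The genotype by induction interaction called 0 members in the gut with edgeR, against 2.45% of all genes, with 15 members at an unadjusted p under 0.05 (8.09% of all genes) and 8 called by DESeq2 (4.51%). The lowest adjusted p (edgeR) was 0.297, for RpL23, while RpL35A had 0.372 and RpL31 0.411. The departure of the Foxo+AopACT response from what Foxo and AopACT gave when added on the log2 scale had a median of -0.81 over the members and -0.12 over all genes, and called 0 members and 0 genes (edgeR; 8 members and 4.67% of all genes with an unadjusted p under 0.05; DESeq2 called 0 members), with a lowest adjusted p of 0.918. The joint response was not compared with each single response.

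Fat bodies showed no called member in any comparison, with edgeR or DESeq2. This covers the 7 genotypes, the mean response, the departure and the interaction, in which 9, 1, 0, 0, 2, 3, 0, 0, 2 and 0 members had an unadjusted p under 0.05 in the order Foxo, AopACT, PntP1, Foxo+AopACT, Foxo+PntP1, AopACT+PntP1, all 3, mean, departure and interaction. In the same order edgeR called 0%, 0.411%, 0.0103%, 0.0308%, 0%, 0.123%, 0.0103%, 0.277%, 0.0719% and 0.113% of all genes, and 21.8%, 4.88%, 2.17%, 2.32%, 4.54%, 23.2%, 2.47%, 3.79%, 17.2% and 13.1% of all genes had an unadjusted p under 0.05. DESeq2 called from 0.00903% of all genes (Foxo+PntP1) to 8.95% (AopACT+PntP1) in these comparisons. The median log2 fold changes over the members were -0.51 with Foxo, -0.41 with AopACT, 0.09 with PntP1, -0.22 with Foxo+AopACT, 0.52 with Foxo+PntP1, -0.12 with AopACT+PntP1, -0.20 with all 3 and -0.12 for the mean. With total counts they were -0.07, -0.03, 0.28, -0.24, 0.35, -0.56 and 0.03 for the 7 genotypes in that order. All genes then had medians of 0.461, 0.407, 0.166, -0.127, -0.221, -0.437 and 0.136. Relative to all genes the median member was at -0.535, -0.433, 0.114, -0.117, 0.575, -0.119 and -0.108 with total counts. With TMM it was at -0.492, -0.414, 0.0926, -0.137, 0.542, -0.0921 and -0.117. With TMM, leaving out single libraries gave medians over the members of -0.64 to -0.23 with Foxo and -0.30 to -0.01 with Foxo+AopACT. The sign turned with PntP1 (-0.18 to 0.38), AopACT+PntP1 (-0.39 to 0.13) and all 3 (-0.64 to 0.47).

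The fat body values of single members show how far replicates lay apart. In Foxo flies RpL27 had 1437, 2394 and 2019 CPM uninduced and 1315, 1008 and 1907 CPM induced (log2 fold change -0.43, edgeR adjusted p = 0.416). RpS6 had 1975, 2478 and 3306 CPM uninduced and 1416, 1448 and 1966 CPM induced, without overlap (log2 fold change -0.65, edgeR adjusted p = 0.286). Of the 85, 13 had all induced below all uninduced libraries in Foxo flies (13% of all genes) and 20 in AopACT flies (13.4%).

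Foxo+PntP1 fat bodies stood on the other side. There 58 of 85 members had both induced libraries above the 3 uninduced ones (14.6% of all genes), with RpLP1 at 2069, 1310 and 1996 CPM uninduced and 3145 and 2482 CPM induced (log2 fold change 0.52, edgeR adjusted p = 0.833). Without the uninduced library whose pnt level went against its label, 0 members were called, 37 had an unadjusted p under 0.05 (6% of all genes), and the median log2 fold change was 0.76. With AopACT+PntP1 the members spread widest, from -1.51 for RpS5b to 2.32 for RpL23A, which had 143 and 324 CPM uninduced and 374, 1839 and 688 CPM induced (edgeR adjusted p = 0.219). The lowest adjusted p in the interaction (edgeR) were 0.399 for RpLP0-like, 0.407 for RpS5b, 0.448 for RpL18 and 0.456 for RpLP1. In the departure it was 0.27 (edgeR), for RpS5b at -3.90, with RpL35, RpLP1 and RpS15Aa next. A difference between gut and fat body was not tested.

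Large- and small-subunit genes had close medians. In Foxo+AopACT guts the median log2 fold change was -0.88 for 51 large-subunit and -0.88 for 34 small-subunit genes, in PntP1 guts -0.65 and -0.64, and in the gut mean response -0.35 and -0.31. In Foxo+PntP1 fat bodies the medians were 0.45 and 0.57.

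Members also varied against each other from library to library, in a pattern that was largely the same in both tissues. Each member was expressed as its log2 difference from the median member of the library, and 84 members were used, RpS5b being left out for its low count in the gut. The first principal component held 68.5% (gut) and 66.3% (fat body) of this variance. Its loadings in the tissues had a Pearson r of 0.954 across the 84 members, which share libraries within each tissue and are not independent replicates. At one end were RpL3, RpL7A, RpL23A, sta, RpLP0, RpL4, RpL22 and RpL8, and at the other RpL38, RpL39, RpL41, RpS3A, RpL15 and RpL21, genes named here after their values were seen. Of the 15 members at the high end, 14 were shared by gut and fat body, and of the 15 at the low end, 12.

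Few members held a fixed ratio to the rest and some ranged widely. The SD against the library's median member was under 0.15 log2 units for 16 gut and 11 fat body members, among them RpL32 (0.113 and 0.138), RpL11 (0.112 and 0.103) and RpL12 (0.146 and 0.122). It was over 0.5 for 16 and 12, with RpL3 (0.883 and 0.804), RpL23A (0.830 and 1.12) and RpL39 (0.833 and 0.748) among the widest; RpS7 was the tightest in the fat body (0.0848). RpL32, a gene often used as a reference in fly qPCR, stayed above the library's median member throughout. The distance was 0.509 to 0.99 log2 units in guts and 0.246 to 0.74 in fat bodies. Its own level in Foxo+AopACT guts fell.

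The loading rose with transcript length. Across the 84 members the loading and the log2 transcript length had a Pearson r of 0.629 (gut) and 0.618 (fat body). The median transcript was 1085 bp for the 15 genes at the high end in both tissues. For the 15 at the low end it was 724 bp in the gut and 708 bp in the fat body. Over all members it was 724 bp, the same as or close to these low-end values. Of the variance of this component among libraries, 73.4% (gut) and 76.5% (fat body) lay between libraries of the same group.

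The ratio of RpL7A to RpL38 shows the pattern in single libraries. On the log2 scale it ran from -2.95 in gut Foxo+AopACT+PntP1 uninduced replicate 3 to 2.86 in gut Foxo induced replicate 2, and from 0.151 to 3.78 in the fat body. The lowest 2 gut values, -2.95 and -2.3, were those of the libraries with 24.9% mitochondrial counts. Uninduced gut libraries had a median of 1.35 and induced ones 1.55, with ranges that overlapped almost entirely.

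The Foxo+AopACT gut libraries were not alike in this pattern. The log2 ratio of RpL7A to RpL38 was 0.887, 2.31 and -0.932 in the uninduced and 2.29 and 2.26 in the induced libraries. RpL7A had 581, 787 and 252 CPM uninduced and 725 and 714 CPM induced, and RpL38 had 314, 158 and 481 CPM uninduced and 148 and 148 CPM induced. The slope of log2 level on log2 transcript length over 4302 genes, relative to the average library, was -0.128, 0.0658 and -0.175 in the uninduced and 0.18 and 0.108 in the induced libraries, and the mitochondrial share was 6.85%, 3.13%, 8.48%, 7.28% and 5.88%. With the length slope in the fit, chosen after seeing the data, the median member of Foxo+AopACT guts was -0.44 in place of -0.88. Then 0 members were called (0.798% of all genes). With the mitochondrial share the median member was -0.88 and 60 were called (13.7% of all genes).

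**Figure D4:**
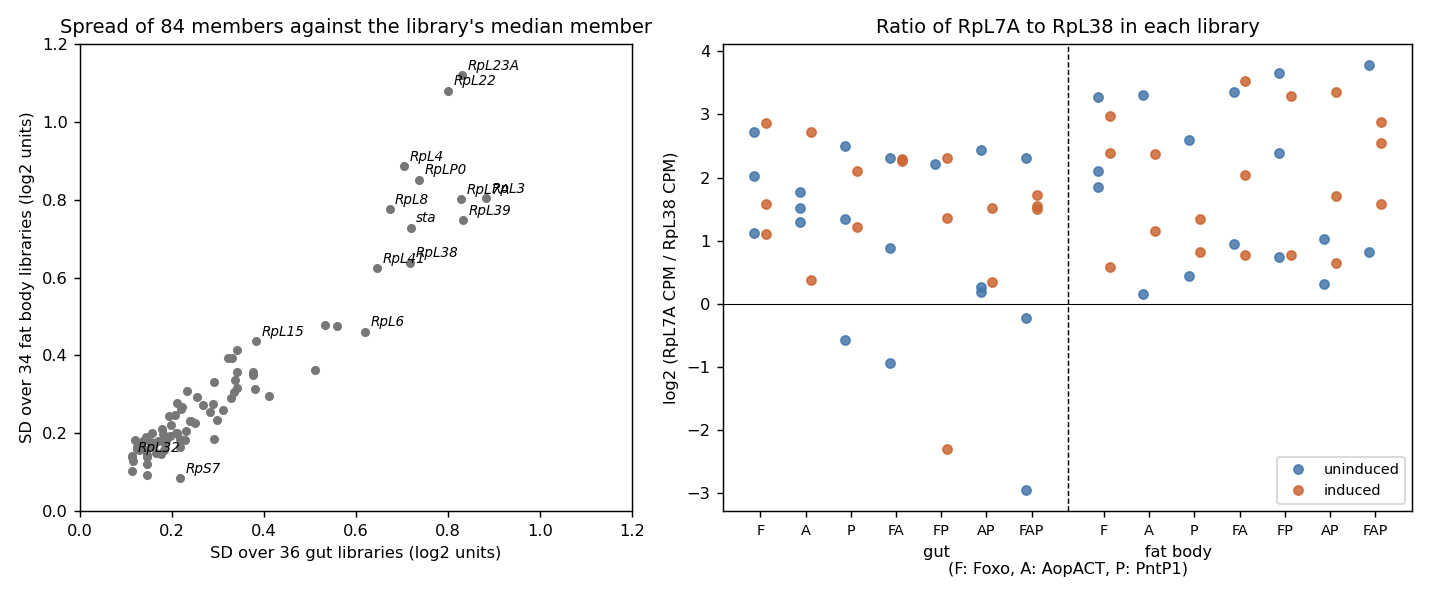
Left, the SD of each of 84 genes against the median ribosomal protein gene of its library (log2 units), over 36 gut libraries on the x axis and 34 fat body libraries on the y axis; right, the log2 ratio of RpL7A to RpL38 in every library by genotype (F, Foxo; A, AopACT; P, PntP1), blue uninduced and orange induced. Genes that vary in one tissue vary in the other (RpL3, 0.883 and 0.804), and the ratio reaches -2.95 and -2.3 in the 2 gut libraries with 24.9% mitochondrial counts.

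Between uninduced guts and fat bodies, the mean CPM per kb of RpS5b differed by a larger ratio than that of any other of the 85. RpS5a and RpS5b encode versions of the same small-subunit protein near the exit of the mRNA channel. In the gut RpS5b ranged from 0 to 36.2 CPM (median 8.56), and in the fat body from 5.17 to 357 CPM (median 95.0), beside RpS5a at 833 to 3136 CPM. Induced and uninduced fat body libraries overlapped in 5 of 7 genotypes, while in AopACT flies (88.6 and 5.17 CPM uninduced, 133 and 294 CPM induced) and PntP1 flies (15.4 and 87.4 CPM uninduced, 124 and 221 CPM induced) they did not. Neither passed (edgeR adjusted p = 1 in each).

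Markers of the germline moved with RpS5b across fat body libraries. Of the 8 markers fixed for the germline, 7 were in the table and nos was not analysed here; osk, piwi and bru1 had medians of 279, 85.8 and 109 CPM, vas had 41.7 CPM, and bam was at 0 in 1 library. Their summed level, in CPM, ran from 113 to 1590 CPM in uninduced and from 151 to 1430 CPM in induced libraries. The library lowest in RpS5b, AopACT uninduced replicate 2 at 5.17 CPM, was also lowest in germline markers (113 CPM), and the highest, AopACT+PntP1 uninduced replicate 2 at 357 CPM, was also highest (1589 CPM), with 11650 CPM of ovary and follicle cell markers. The part of remaining ovary tissue in the level of RpS5b was not tested, and this comparison was chosen after the values were seen.

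**Figure D5:**
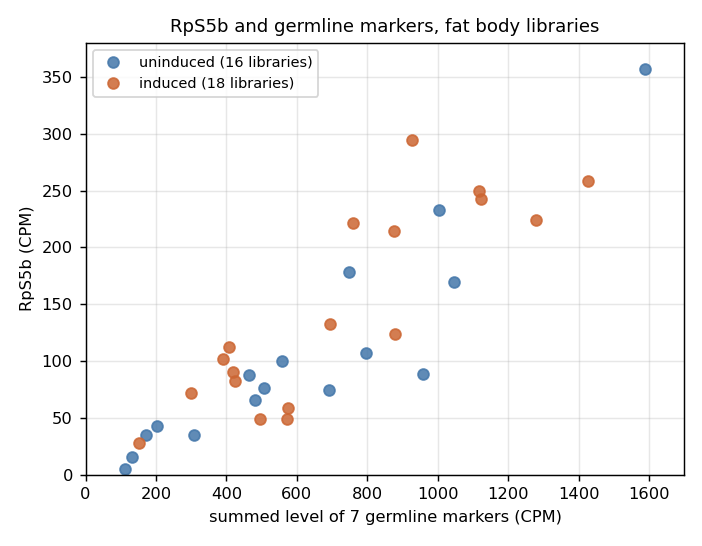
RpS5b level (CPM, y axis) against the summed level of 7 germline markers (CPM, x axis) in the 34 fat body libraries, blue uninduced (16) and orange induced (18). Points run from 5.17 CPM at a marker sum of 113 CPM to 357 CPM at 1589 CPM, and both colours lie along the same band.

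Other genes of protein synthesis did not show the same count of calls in Foxo+AopACT guts, where 1.29% of all genes tested fell and 0.831% rose. Among mitochondrial ribosomal proteins 0 of 72 tested were called, with a median log2 fold change of -0.63, among translation factors 0 of 45 (-0.14), among ribosome biogenesis genes 0 of 22 (0.04) and among regulators of ribosomal protein synthesis 0 of 18 (0.15). Nuclear-encoded genes of the respiratory chain had 3 of 62 lower (median -0.78): ND-B12 of complex I (-1.17, edgeR adjusted p = 0.0479), COX7B of complex IV (-1.23, adjusted p = 0.0659) and ATPsynCF6 of the ATP synthase (-1.15, adjusted p = 0.0885). Mitochondrially encoded transcripts had 0 of 31 called (median -0.33).

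In the gut mean response, where 6.45% of all genes tested fell and 4.66% rose, 1 of 45 translation factors fell. It was eEF5, which helps ribosomes through proline stretches (-0.45, edgeR adjusted p = 0.099). Of the 18 regulators 1 fell, S6k, the kinase that phosphorylates RpS6 (-0.33, edgeR adjusted p = 0.0232). Of the 62 respiratory chain genes 2 fell, COX7B (-0.43, edgeR adjusted p = 0.0239) and ATPsynbeta (-0.39, adjusted p = 0.0909), and 0 of 72 mitochondrial ribosomal proteins, 0 of 22 biogenesis genes and 0 of 31 mitochondrially encoded transcripts were called. In the fat body 0 genes of these 6 lists were called in any comparison.

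Some markers of cell types were called in the gut mean response as well. Of 6 enterocyte markers 2 fell in the mean response, against 6.45% of all genes tested. These were the trypsin gene betaTry (-1.09, edgeR adjusted p = 0.026) and Jon65Aiv (-0.79, adjusted p = 0.076). The summed level of the 6 ran from 8480 to 53300 CPM in uninduced libraries (median 35900). In induced libraries it ran from 1880 to 41500 CPM (median 18400). The neuronal gene brp fell (-1.33, edgeR adjusted p = 0.0087), although the median of the 4 neuronal markers was 0.16. In AopACT+PntP1 guts alone brp had a log2 fold change of -6.23 (edgeR adjusted p = 0.028). All neuronal markers together summed to only 7.68 to 36.9 CPM in uninduced and 11.2 to 28.9 CPM in induced guts, so brp was near the floor. In Foxo+AopACT guts the median log2 fold change was -0.12 over the enterocyte, -2.13 over 7 germline and -1.23 over 13 ovary and follicle cell markers. It was -1.11 over 2 stem cell and enteroblast, 1.27 over 5 Malpighian tubule and 2.27 over 2 oenocyte markers. Of all these 0 were called. Summed levels of the groups overlapped except for stem cell and enteroblast markers (22.0, 19.3 and 17.8 CPM uninduced, 9.78 and 13.7 CPM induced). Oenocyte markers summed to 118, 85.2 and 53.9 CPM uninduced and 63.4 and 349 CPM induced. Germline markers summed to 202, 179 and 9.32 CPM uninduced and 39.1 and 18.3 CPM induced. The part of cell composition in the ribosomal protein response was not tested.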

How the data were processed

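Poly(A) RNA of 36 gut and 34 fat body libraries was analysed, and 3 labelled fat body libraries were not analysed here. For each tissue the authors deposited a table of raw counts, whole numbers for every gene. The authors removed duplicate reads by molecular identifier with Je, aligned reads to the release 6 genome with HISAT2, counted them per gene with featureCounts and left out genes with no count, and the submitters' processing notes add SAMtools and DESeq2. The sources used here do not say whether counting used strand, and exons of 25 members overlap a gene on the opposite strand and those of 5 (RpL22, RpL23A, RpL7-like, RpS27A and RpS6) a gene on the same strand. Variance-stabilised tables and the Pnt RNAi experiment were not used.

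Identifiers were paired with symbols for 10287 of 10366 gut and 10982 of 11069 fat body genes. Genes that passed filterByExpr (minimum count 10; 9270 gut and 9734 fat body genes) were tested per tissue with edgeR 4.0.16 in R 4.3.3: TMM scaling, 14 groups plus the experimental block given in the deposited table, and the quasi-likelihood test with Benjamini-Hochberg adjustment over all genes tested. A gene was called at an adjusted p under 0.1, the false discovery rate of the study. Contrasts were induced against uninduced per genotype, their mean, the departure of Foxo+AopACT from additivity and the interaction with 6 degrees of freedom. Residual degrees of freedom were 20 (gut) and 18 (fat body), and the biological coefficient of variation was 0.313 and 0.389. CPM are TMM-scaled, log2 CPM have a prior count of 2, and transcript length is the median of a gene's annotated transcripts. On data simulated for Foxo+AopACT, 11 of 100 genes changed 2-fold and 68 of 100 changed 4-fold were recovered among 8912 gut genes. Among 9396 fat body genes 12 and 81 of 100 were. False calls were 7 of 86 calls in the gut and 6 of 99 in the fat body. The simulated counts had the same dispersion in both tissues and no block effect. The measured spread was wider in fat bodies, so recovery there may be overstated.

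The members and gene lists were chosen with earlier results of these data known. Named were paralogs, stalk genes, sta, RpS6, RpS3, RpL40, RpS27A, RpL5, RpL11, the 5 highest and 5 lowest members per kb, up to 6 called members per contrast and direction by lowest p, the 4 highest and 4 lowest log2 fold changes where most were called in a genotype, the 4 lowest p of each interaction, and up to 3 called genes of other lists; other genes were picked with their values in view. The settings tried were RLE and total count scaling, DESeq2 1.42.0, fits without the filter or without the replicate block, a separate fit for each genotype, sets of libraries left out, single libraries left out and, chosen after seeing the data, the length slope and the mitochondrial share as covariates. Promoter sequences were not used here, and some genes that this rule takes are not reported here.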

Additional observations from a re-analysis of the deposited data

How the results depend on the processing

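All counts below are members called, given after the count of the fit described above. Percentages, where given, are of all genes, called in either direction in the same fit. In PntP1 guts (0) DESeq2 called 13 (4.41%), and the fit without the libraries rich in mitochondrial counts 3 (4.5%). The genotype fitted alone gave 14 (13.3%), the length slope 3 (4.7%) and the mitochondrial share 6 (5.69%). Leaving out single libraries gave 0 to 9. For fits without single libraries the share of all genes was not worked out. In Foxo+AopACT guts (13) total count scaling gave 0 (4.43%), DESeq2 45 (4.8%) and no filter 6 (1.74%). The fit without the libraries numbered 02 and 05, whose labels differ between the tissues, gave 7 (2%). That without the libraries rich in mitochondrial counts gave 26 (4.12%). The genotype alone gave 65 (5 higher, 60 lower, 32.8% of all genes), the length slope 0 (0.798%) and the mitochondrial share 60 (13.7%). Leaving out single libraries gave 0 to 44. In Foxo+PntP1 guts (0) RLE gave 1 (2.89%), DESeq2 2 (3.36%) and no replicate block 1 (2.72%). The length slope gave 2 there (5.29%) and the mitochondrial share 1 (3.58%). In Foxo+AopACT+PntP1 guts (0) DESeq2 gave 14 (2.77%), no replicate block 2 (1.54%) and the fit without 02 and 05, 1 (1.52%). The length slope gave 2 (2.34%), the mitochondrial share 3 (2.16%), and leaving out single libraries 0 to 16. The gut mean response (44) gave 9 with total counts (29.1%) and 33 to 57 without single libraries. It could not be fitted without the lone uninduced Foxo+PntP1 gut library. The gut interaction (0) gave 8 with DESeq2 (4.51%) and 0 to 1 without single libraries. In fat bodies (0 throughout) the length slope gave 1 with AopACT (1.21%) and the mitochondrial share 3 with AopACT+PntP1 (8.74%). Leaving out single libraries gave 0 to 3 for the departure and 0 to 1 for the interaction. With total counts the median log2 fold change over members in the gut was -0.27 for PntP1 and -0.44 for Foxo+AopACT. It was -0.42 for Foxo+PntP1 and -0.085 for all 3. All genes had medians of 0.322, 0.313, 0.3 and 0.285 there, in the same order. With TMM and without single libraries the median over members was -0.86 to -0.54 for gut PntP1. For fat body Foxo+AopACT+PntP1 it was -0.64 to 0.47. The replicate block pairs libraries by experiment as the deposited table gives it. Without it the Foxo+AopACT gut count was 14 (2.51%) and the gut mean response count 45 (10.7%). Single genes were followed only where already called: the 13 of Foxo+AopACT guts and the 6 with the lowest p in the gut mean response. Of their 459 values under these settings 366 kept the call, 93 lost it and 0 changed sign. With single libraries left out, each of the 6 mean response genes kept its call in 35 of 35 fits. Each of the 13 Foxo+AopACT genes kept its call in 1 of 5 fits. The cause of these changes was not tested. In the data simulated for Foxo+AopACT most genes changed 2-fold were not recovered; other comparisons were not simulated.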
